A study of Mus musculus with 8 samples.

Results

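The 8 genes described here bind, move or store zinc and iron: the metallothioneins Mt1 and Mt2, the metal importer Slc39a14 (ZIP14), the zinc exporter Slc30a1 (ZnT1), the transferrin receptor Tfrc, the ferritin chains Fth1 and Ftl1, and the iron exporter Slc40a1 (ferroportin). They were taken by symbol from a table of 55801 genes, in which each of the 8 symbols occurred 1 time, and gene positions below are from GENCODE M21 (GRCm38) by Ensembl identifier. Expression is given as TPM (the transcript abundance unit of RSEM), a read share corrected for the length of each gene and brought to an equal total in every sample. The cells were peritoneal macrophages of male C57BL/6 mice, 6 to 8 weeks old, drawn into the abdominal cavity with thioglycollate. The 4 groups held 2 samples each. NC (titled CTRL) received the vehicle DMSO, LPS received 100 ng/ml of lipopolysaccharide for 4 h, C498 received 15 µM of C498, a small molecule known by this code name, and C498_LPS, written C498+LPS below, received 15 µM of C498 for 0.5 h and then LPS for 4 h. The labels do not say whether the 2 samples of a group came from separate mice or cultures, so each p measures only the spread between these samples. In bulk RNA, fewer cells of a type and less RNA per cell cannot be told apart.

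Metallothioneins are small cysteine-rich proteins that hold zinc and copper, and their genes are switched on by the zinc sensor MTF1 through metal response elements (MREs) in their promoters. MTF1 also acts on Slc30a1, which moves zinc out of the cell, whereas Slc39a14 brings zinc and iron in and is known as an acute phase transporter. Iron enters through Tfrc, is stored inside ferritin, a shell of Fth1 and Ftl1 chains, and leaves through Slc40a1. Iron regulatory proteins bind hairpins in these mRNAs, the iron-responsive elements, where they hold back translation of the ferritins and Slc40a1 and protect Tfrc mRNA from decay. Macrophages are the main recyclers of iron in the body, and inflammation is known to shift them towards holding iron and zinc.

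The bases just before the start of Mt1, Mt2 and Slc30a1 are shown because these are known MTF1 targets and each was called in at least 1 comparison below. Sequences are from RefSeq (GRCm38.p6), 5′ to 3′ on the strand of the gene, with the MRE core (TGCACNC or TGCGCNC, searched on both strands) in capitals. RefSeq windows of 300 bases, from 250 before to 50 after the start, were matched for 6 of the 8 genes, all but Slc39a14 and Slc40a1. The bases before Mt1 lie at chr8:94178839-94179081 (+), those before Mt2 at chr8:94172368-94172617 (+) and those before Slc30a1 at chr1:191906531-191906766 (+). A further pair of cores follows the annotated start of Mt1 at chr8:94179091-94179115. Starts here are those of the annotation, and where transcription began in these cells was not tested. Those cores need therefore not lie within the Mt1 transcript of these cells.

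Mt1: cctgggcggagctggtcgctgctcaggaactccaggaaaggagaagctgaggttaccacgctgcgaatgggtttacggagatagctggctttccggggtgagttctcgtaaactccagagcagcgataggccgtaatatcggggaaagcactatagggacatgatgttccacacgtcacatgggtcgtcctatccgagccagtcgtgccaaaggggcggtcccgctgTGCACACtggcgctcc
Mt1 after the start: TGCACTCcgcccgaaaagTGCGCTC
Mt2: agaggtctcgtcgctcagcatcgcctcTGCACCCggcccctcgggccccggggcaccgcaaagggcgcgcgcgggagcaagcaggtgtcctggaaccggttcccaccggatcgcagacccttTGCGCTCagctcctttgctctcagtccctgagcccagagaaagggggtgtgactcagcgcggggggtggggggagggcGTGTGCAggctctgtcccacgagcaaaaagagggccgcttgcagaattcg
Slc30a1: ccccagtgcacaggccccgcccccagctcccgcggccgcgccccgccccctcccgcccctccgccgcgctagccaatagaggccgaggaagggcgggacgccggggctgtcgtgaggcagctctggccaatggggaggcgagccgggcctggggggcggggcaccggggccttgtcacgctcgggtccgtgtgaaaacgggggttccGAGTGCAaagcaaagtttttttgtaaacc

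The 300-base window held 4 MRE cores at Mt2, 3 at Mt1, 2 at Slc30a1 and 1 at Tfrc, in 1 of its 2 windows, while the windows of Fth1 and Ftl1 held 0. Among 32851 RefSeq windows of that length, 25.7% held at least 1 core, 6.14% at least 2, 1.31% at least 3 and 0.295% at least 4. The nearest core before the RefSeq start was separated from it by 16 bases at Mt1, 43 at Mt2 and 36 at Slc30a1. The bases printed for Mt1 and Slc30a1 stop earlier, at the GENCODE start of the gene, so fewer bases follow the last core there. The core of the antioxidant response element (TGACNNNGC, either strand), to which NRF2 binds, was found 1 time each at Mt2 and Slc30a1 and in 12.4% of all windows. A match to these letters is a description of the sequence and not a shown binding site.

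The hairpin loops of the iron genes are shown because they set apart the ferritins and Slc40a1 from Tfrc by their place in the mRNA. Searched was a C, 5 bases, the loop CAGTGN in capitals (N being A, C or T) and 5 bases pairing with the first arm, in GENCODE M21 transcripts on GRCm38. Such a loop was found in the 5′ UTR of 23 of 20899 genes (0.11%) and in the 3′ UTR of 100 of 21685 genes (0.461%). Fth1, Ftl1 and Slc40a1 each held 1 in the 5′ UTR and Tfrc held 4 in the 3′ UTR.

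Fth1 5′ UTR: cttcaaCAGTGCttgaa
Ftl1 5′ UTR: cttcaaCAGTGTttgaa
Slc40a1 5′ UTR: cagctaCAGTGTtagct
Tfrc 3′ UTR, loop 1: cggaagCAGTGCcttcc
Tfrc 3′ UTR, loop 2: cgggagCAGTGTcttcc
Tfrc 3′ UTR, loop 3: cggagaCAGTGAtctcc
Tfrc 3′ UTR, loop 4: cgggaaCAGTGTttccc

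All 10 macrophage markers examined had a mean TPM above 1, and their summed TPM was 20573 to 21445 in NC, 19012 to 19368 in LPS, 16641 to 16706 in C498 and 12993 to 15018 in C498+LPS. Fibroblast markers moved with the compound, since Col1a1, Col1a2, Col3a1, Pdgfra, Dcn and Lum together reached 150.3 to 192.4 TPM in NC and 175.9 to 200.5 in LPS, but 633.2 to 750.0 in C498 and 618.1 to 910.8 in C498+LPS. Of these 6 genes, 5 had a mean TPM above 1 and Lum was near 0. The 5 mesothelial markers summed to 4.66 to 5.58 TPM in NC, 5 to 5.36 in LPS, 14.8 to 20.9 in C498 and 15.5 to 24.5 in C498+LPS. Neutrophil markers, mostly S100a8, summed to 82.4 to 134.8 TPM in NC, 97.5 to 123.0 in LPS, 52.6 to 55.8 in C498 and 72.3 to 81.6 in C498+LPS, with Ngp and Elane listed at 0 in all samples, and the B cell, T cell, eosinophil, mast cell and erythroid sums stayed at or below 16.1 TPM. Sequencing depth cannot be read from TPM and is unknown. Differences were tested with limma on log2(TPM + 1) over the 12189 genes whose TPM averaged 1 or more, and a gene was called at 2-fold or more with an adjusted p of at most 0.05. Of the 8 genes, 7 passed this filter on low values and Slc40a1 did not.

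Mt1 was an abundant transcript in resting cells and was highest where C498 and LPS were combined. Mt1 (ENSMUSG00000031765, chr8:94179082-94180327, +) stood at 336.6 and 397.8 TPM in NC, at 269.5 and 373.1 in LPS, at 399.7 and 414.8 in C498 and at 662.2 and 807.1 in C498+LPS. The C498+LPS samples lay above all others, LPS and NC overlapped, and C498 lay just above NC. The mean in C498+LPS, 734.7 ± 102.4 TPM (SD, n = 2), was 2.29 times that in LPS, 321.3 ± 73.2. On the log2 scale this was a rise of 1.20 (SE 0.173, adjusted p = 0.00468). The call was lost without LPS replicate 1 (0.97, adjusted p = 0.0344, under 2-fold) and without C498+LPS replicate 2 (1.06, adjusted p = 0.0520). Against C498, Mt1 rose by 0.84 (SE 0.173, adjusted p = 0.0195), short of 2-fold, and the adjusted p exceeded 0.05 without any 1 of the 4 samples compared, reaching 0.126 without C498 replicate 1. Neither treatment alone passed the test: the change was -0.21 (95% interval -0.61 to 0.20, adjusted p = 0.416) for LPS and 0.15 (-0.25 to 0.56, adjusted p = 0.577) for C498.

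Mt2 rose under each treatment and again when they were combined. Mt2 (ENSMUSG00000031762, chr8:94172664-94173568, +), which neighbours Mt1 on the same strand, stood at 31.2 and 47.8 TPM in NC, at 95.6 and 151.0 in LPS, at 143.0 and 153.4 in C498 and at 392.2 and 473.2 in C498+LPS. NC was the lowest group and C498+LPS the highest without overlap, while LPS and C498 overlapped each other. The mean rose from 39.5 ± 11.7 TPM (SD, n = 2) in NC to 123.3 ± 39.2 in LPS, 148.2 ± 7.35 in C498 and 432.7 ± 57.3 in C498+LPS. LPS raised Mt2 by 1.61 on the log2 scale (SE 0.257, adjusted p = 0.00397), a ratio of means of 3.12, and this call held without each sample in turn (adjusted p from 0.00737 to 0.0291). C498 raised it by 1.91 (SE 0.257, adjusted p = 0.00460), a ratio of 3.75, but not past the threshold without C498 replicate 1 (adjusted p = 0.0523) or C498 replicate 2 (0.0550).

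With LPS present, C498 raised Mt2 by 1.83 (SE 0.257, adjusted p = 0.00427), 3.51 times in means, a call lost without C498+LPS replicate 2 (adjusted p = 0.0533). With C498 present, LPS raised it by 1.53 (SE 0.257, adjusted p = 0.00995), 2.92 times in means, and this call was lost without any 1 of the 4 samples compared (adjusted p from 0.0504 without C498+LPS replicate 1 to 0.0862 without C498 replicate 1). The fibroblast marker sums given above moved with each C498 comparison, and their part in the rise of Mt1 and Mt2 was not tested. Between C498+LPS and C498 those sums overlapped, and between LPS and NC they did too. The highest sum, 910.8 TPM, was that of C498+LPS replicate 2, which also held the highest Mt1 and Mt2 levels. The part of the fibroblast markers in the comparisons of LPS was not tested either.

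The balance within the metallothioneins shifted towards Mt2. The ratio of Mt2 to Mt1 TPM was 0.0928 and 0.120 in NC, 0.355 and 0.405 in LPS, 0.358 and 0.370 in C498, and 0.592 and 0.586 in C498+LPS. NC was lowest and C498+LPS highest without overlap, and C498 fell inside the range of LPS. Together the genes made up 367.8 and 445.6 TPM in NC, 365.1 and 524.1 in LPS, 542.7 and 568.2 in C498 and 1054 and 1280 in C498+LPS. For such single values, 2 samples against 2 cannot reach an exact two-sided permutation p below 0.333, so they are given as a description. Of the other metallothioneins, Mt3 lay between 1.78 and 7.50 TPM and Mt4 was listed at 0 in all 8 samples.

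**Figure D1:**
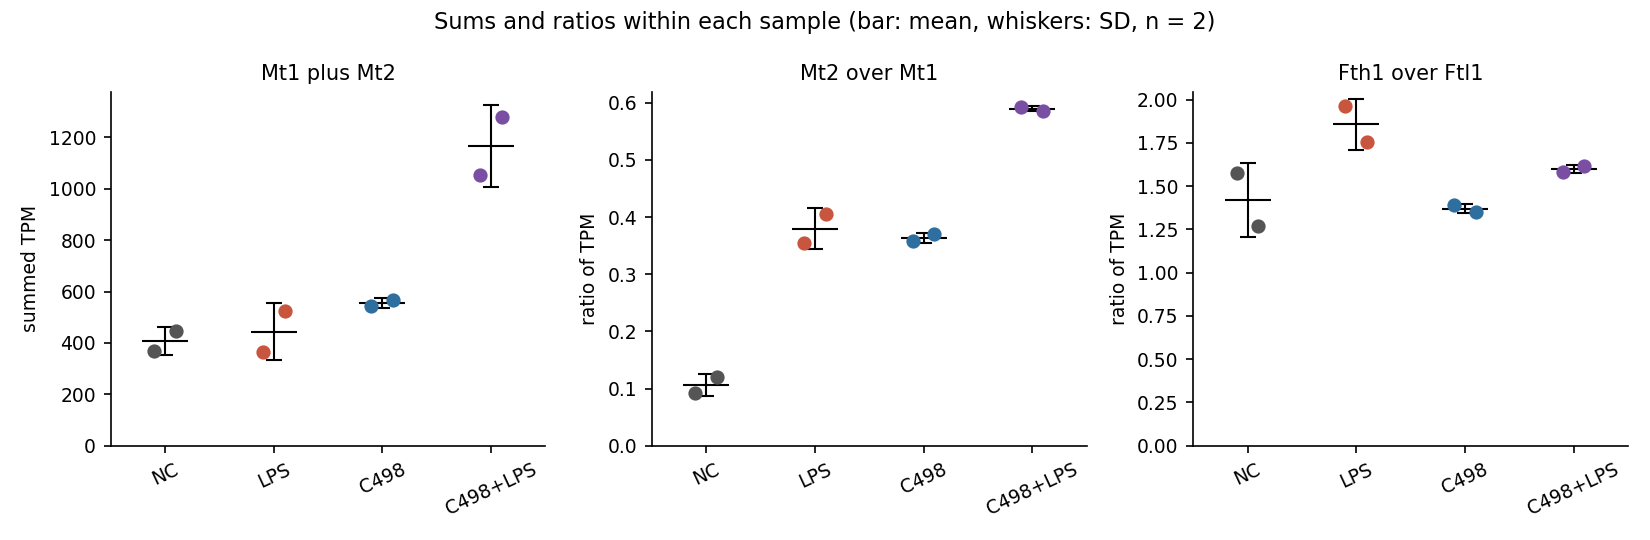
Summed TPM of Mt1 and Mt2 (left), the ratio of Mt2 to Mt1 TPM (middle) and the ratio of Fth1 to Ftl1 TPM (right) in each sample of the 4 groups, with points for samples, bars for means and whiskers for the SD (n = 2). The Mt2 to Mt1 ratio runs from 0.0928 to 0.120 in NC to 0.586 to 0.592 in C498+LPS, with LPS and C498 in between.

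Among the transporters that bring metal in, Slc39a14 rose with LPS. Slc39a14 (ENSMUSG00000022094, chr14:70303469-70351425, -) stood at 9.49 and 5.28 TPM in NC, at 23.0 and 16.6 in LPS, at 15.1 and 14.2 in C498 and at 22.8 and 18.7 in C498+LPS. NC was lowest, C498 lay between NC and the LPS-treated groups without overlap, and both C498+LPS values fell inside the range of LPS. The mean rose 2.68 times with LPS, by 1.34 on the log2 scale (SE 0.267, adjusted p = 0.00969). This call was lost without NC replicate 2 (0.97, under 2-fold), without LPS replicate 1 (1.12, adjusted p = 0.0789) and in a fit of the LPS and NC samples alone (adjusted p = 0.0750). The change with C498 was 0.95 (SE 0.267, adjusted p = 0.0547) and missed the threshold, but was called without NC replicate 1 (1.32, adjusted p = 0.0153). With LPS present, C498 moved Slc39a14 by 0.076 (95% interval -0.55 to 0.70, adjusted p = 0.891).

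The zinc exporter Slc30a1 was highest with C498 alone and did not show that level when LPS followed. Slc30a1 (ENSMUSG00000037434, chr1:191906767-191913247, +) stood at 21.4 and 15.9 TPM in NC, at 13.6 and 13.9 in LPS, at 32.8 and 27.8 in C498 and at 14.5 and 11.6 in C498+LPS. C498 lay above all other groups, NC came next without overlap, and LPS and C498+LPS overlapped at the bottom. From C498 to C498+LPS the mean fell from 30.3 ± 3.54 TPM (SD, n = 2) to 13.1 ± 2.01, a log2 change of -1.16 (SE 0.184, adjusted p = 0.00801). The call was lost when each sample was centred on its median gene (-0.95, under 2-fold), without C498 replicate 1 (adjusted p = 0.0816), without C498 replicate 2 (0.0522) and without C498+LPS replicate 2 (0.0667).

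Against NC, C498 raised Slc30a1 by 0.68 (SE 0.184, adjusted p = 0.0470), short of 2-fold, and the adjusted p exceeded 0.05 without NC replicate 2 (0.140), without either C498 sample (0.258 and 0.134) and without any sample of the LPS (0.0924 and 0.0926) or C498+LPS group (0.0675 and 0.0672) and in a fit of these groups alone (0.145). The fibroblast and mesothelial marker sums were higher in the same C498 samples, and their part in this rise was not tested. The difference between LPS and NC was -0.40 (SE 0.184, adjusted p = 0.146), and that between C498+LPS and LPS was -0.076 (95% interval -0.51 to 0.36, adjusted p = 0.831). The order of the groups for Slc30a1 was not that of the metallothioneins, since C498+LPS held the highest Mt1 and Mt2 levels and, in replicate 2, the lowest Slc30a1 level of the 8 samples.

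**Figure D2:**
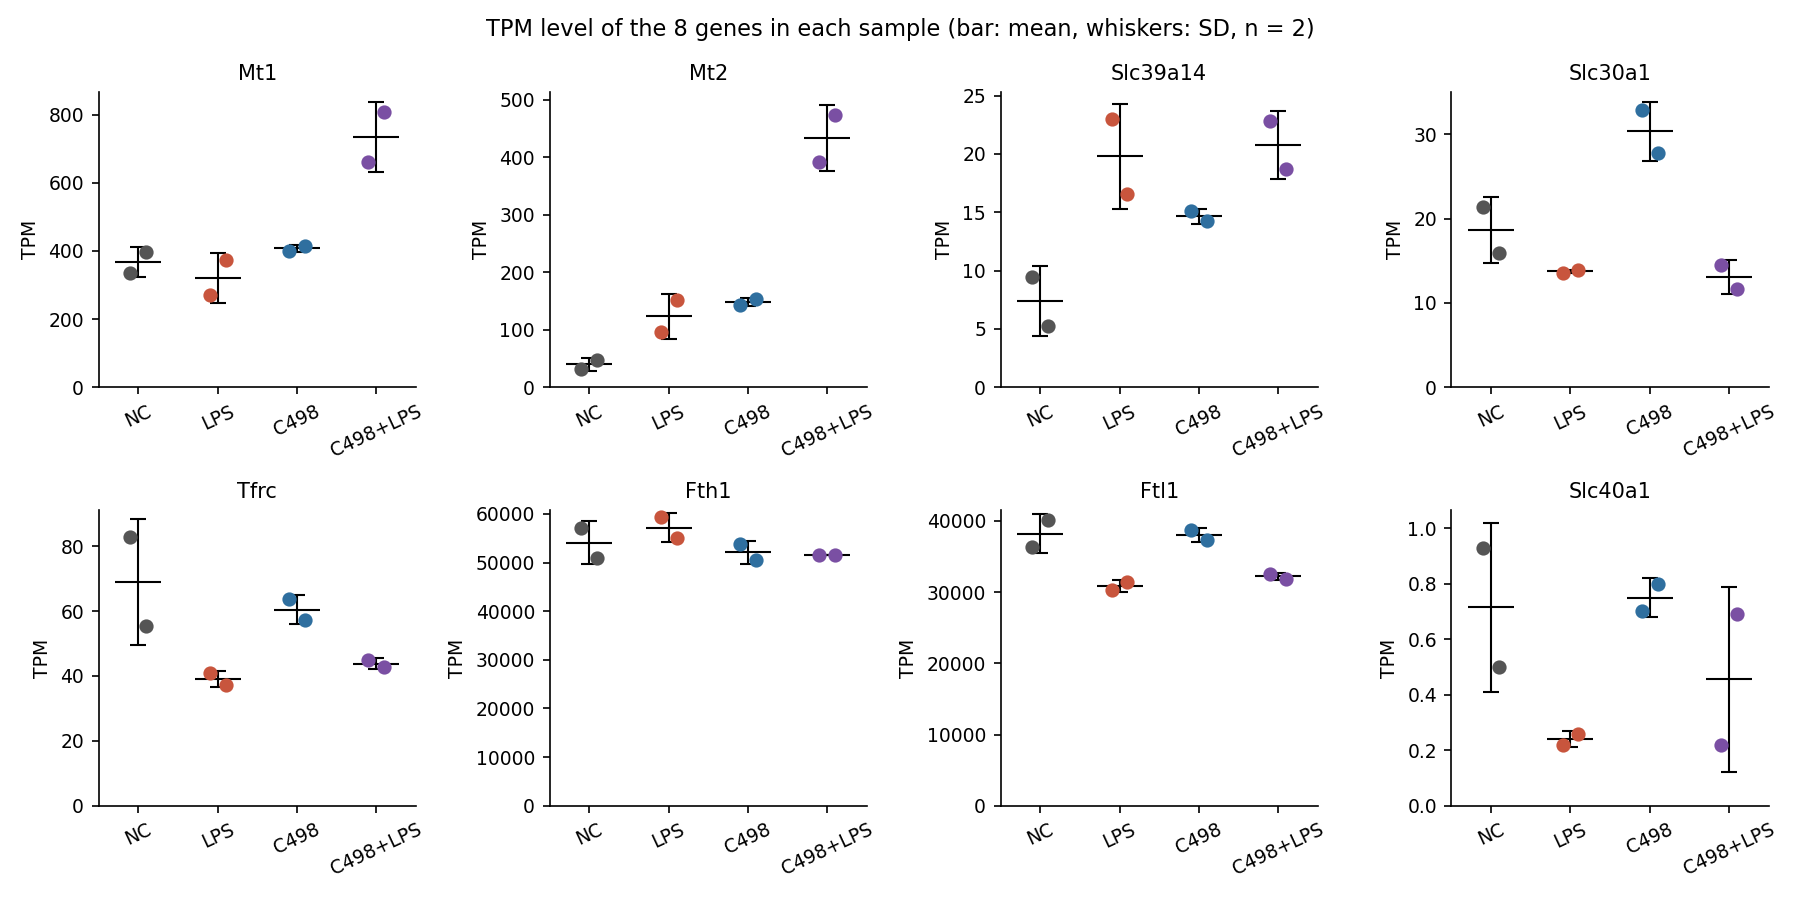
TPM of the 8 genes in each sample of NC, LPS, C498 and C498+LPS, on a linear axis from 0, with points for samples, bars for means and whiskers for the SD (n = 2). Mt1 and Mt2 are highest in C498+LPS, Slc30a1 in C498 (27.8 and 32.8 TPM), and Tfrc and Ftl1 are lower in both groups with LPS.

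On the iron side, LPS lowered Tfrc, by less than 2-fold. Tfrc (ENSMUSG00000022797, chr16:32608920-32632794, +) stood at 82.7 and 55.3 TPM in NC, at 40.8 and 37.2 in LPS, at 63.6 and 57.3 in C498 and at 44.9 and 42.6 in C498+LPS. Both groups with LPS lay below both groups without it, C498 fell inside the wide range of NC, and C498+LPS lay just above LPS. The log2 change with LPS was -0.78 (SE 0.183, adjusted p = 0.0180), where the median of all tested genes was -0.17. It was called without NC replicate 2 (-1.07, adjusted p = 0.00301), but the adjusted p exceeded 0.05 without LPS replicate 1 (0.0739), without LPS replicate 2 (0.108) and in a fit of these groups alone (0.0937). The change from C498 to C498+LPS was -0.45 (SE 0.183, adjusted p = 0.137). C498 moved Tfrc by -0.16 without LPS (95% interval -0.59 to 0.27) and by 0.16 with it (-0.27 to 0.59).

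The ferritin heavy chain Fth1 was the most abundant transcript of all genes in each of the 8 samples. Fth1 (ENSMUSG00000024661, chr19:9980598-9985098, +) stood at 57177 and 50960 TPM in NC, at 59316 and 55114 in LPS, at 53770 and 50469 in C498 and at 51561 and 51507 in C498+LPS. The groups overlapped, except that both LPS values lay above those of C498 and C498+LPS. All 4 comparisons missed the threshold, with log2 changes of 0.083 for LPS (95% interval -0.16 to 0.33), -0.051 for C498 (-0.30 to 0.19), -0.15 for C498+LPS against LPS (-0.39 to 0.094) and -0.016 for C498+LPS against C498 (-0.26 to 0.23). The last of these turned to 0.20 when each sample was centred on its median gene.

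The light chain Ftl1 ranked just behind Fth1 in all 8 samples and was lower in the groups with LPS. Ftl1 (ENSMUSG00000050708, chr7:45457944-45459884, -) stood at 36325 and 40121 TPM in NC, at 30239 and 31438 in LPS, at 38707 and 37355 in C498 and at 32574 and 31878 in C498+LPS. Both groups with LPS lay below both groups without it. The mean was 38223 ± 2684 TPM (SD, n = 2) in NC and 30838 ± 848 in LPS, a log2 change of -0.31 (SE 0.0939, adjusted p = 0.0451). This adjusted p exceeded 0.05 without any 1 of the 8 samples (0.0675 without NC replicate 1 to 0.301 without LPS replicate 1), in a fit of the LPS and NC samples alone (0.384) and after centring on the median gene (-0.14, adjusted p = 0.732). The change from C498 to C498+LPS was -0.24 (SE 0.0939, adjusted p = 0.129), beside a median of -0.18 over all tested genes.

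Fth1 and Ftl1 together took 9.35% and 9.11% of all TPM in NC, 8.96% and 8.66% in LPS, 9.25% and 8.78% in C498 and 8.41% and 8.34% in C498+LPS. The ratio of Fth1 to Ftl1 TPM was 1.57 and 1.27 in NC, 1.96 and 1.75 in LPS, 1.39 and 1.35 in C498 and 1.58 and 1.62 in C498+LPS. LPS held the highest ratios and C498 stayed inside the range of NC. Reads of Ftl1 can be shared with near-identical pseudogenes, of which Ftl1-ps1 was listed at 421.4 and 342.1 TPM in NC, 242.5 and 110.7 in LPS, 424.2 and 247.5 in C498 and 134.7 and 100.5 in C498+LPS. These levels were small beside those of Ftl1, and the other ferritin pseudogenes examined stayed at or below 2.78 TPM.

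The iron exporter Slc40a1 (ENSMUSG00000025993, chr1:45908068-45926523, -) was close to the lower limit of the table. It was listed at 0.93 and 0.50 TPM in NC, 0.22 and 0.26 in LPS, 0.70 and 0.80 in C498 and 0.22 and 0.69 in C498+LPS. Both LPS values lay below those of NC and C498, and C498+LPS spanned the range between them. With a mean of 0.54 TPM it was not tested, and without the filter on low values the adjusted p was 0.239 for LPS, 1 for C498, 0.647 for C498+LPS against LPS and 0.499 for C498+LPS against C498.

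Counted over the genes tested, LPS against NC called 2 of 7 (Mt2 and Slc39a14, both higher), where 12.2% of all 12189 genes were called. By the adjusted p alone 4 of 7 passed (Mt2 and Slc39a14 higher, Tfrc and Ftl1 lower), where 29.6% of all genes did. C498 against NC called 1 of 7 (Mt2), beside 7% of all genes, and by the adjusted p alone 2 of 7 (Mt2 and Slc30a1), beside 15.5%. C498+LPS against LPS called 2 of 7 (Mt1 and Mt2), beside 7.57% of all genes, and the adjusted p alone passed the same pair, beside 16.8%. C498+LPS against C498 called 2 of 7 (Mt2 higher and Slc30a1 lower), beside 5.64%, and the adjusted p alone passed 3 of 7 with Mt1, beside 16.2%. The comparisons share samples, so their counts are not independent.

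Whether the effect of C498 differed with and without LPS was tested by limma as an interaction. The interaction of Mt1 was 1.05 on the log2 scale (SE 0.244, 95% interval 0.48 to 1.62), with an unadjusted p of 0.00333 and an adjusted p of 0.167. That of Slc30a1 was -0.76 (SE 0.260, unadjusted p = 0.0213, adjusted p = 0.352), and that of Mt2 was -0.077 (95% interval -0.93 to 0.78, adjusted p = 0.958). Of the 7 genes, 2 had an unadjusted p under 0.05 and 0 were called, beside 0.468% of all genes at 2-fold and 0.492% by the adjusted p alone.

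**Figure D3:**
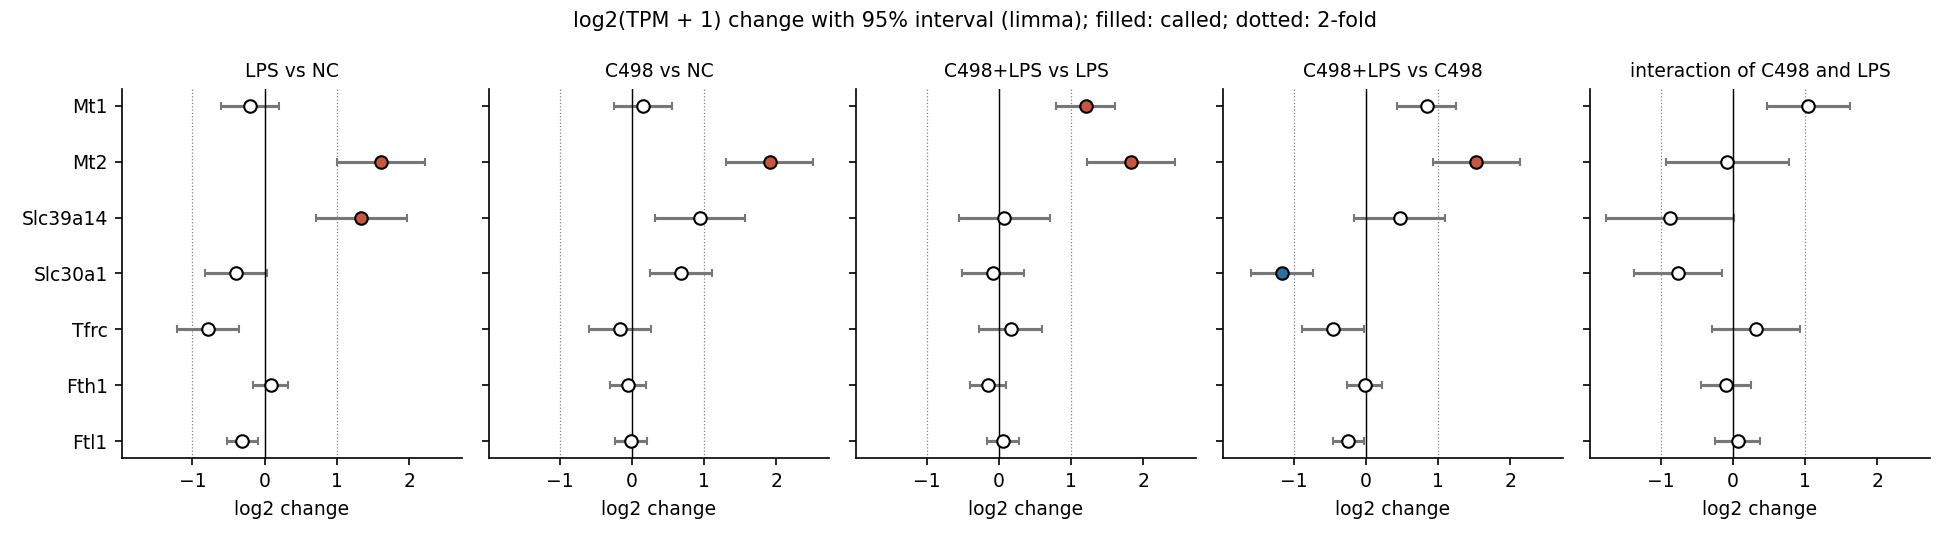
log2(TPM + 1) change of the 7 tested genes in the 4 comparisons and the interaction, with 95% intervals from limma. Filled points are called genes and dotted lines mark 2-fold. Mt2 is called in all 4 comparisons (1.53 to 1.91), Mt1 in C498+LPS against LPS, Slc39a14 in LPS against NC and Slc30a1 in C498+LPS against C498.

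The other genes of zinc, copper and iron handling were followed in 9 lists of 86 distinct genes, of which 64 were tested. Their calls, and those of the NRF2 genes below, were not checked by leaving out samples or by other scalings, unlike those of the 8 genes. Hamp, 1 of these, passed the filter on low values only through its C498+LPS samples and is left out of the counts here, which leaves 63. LPS called 1 higher and 5 lower (6 of 63, beside 12.2% of all tested genes). C498 called 4 higher and 2 lower (6 of 63, beside 7%), C498+LPS against LPS 3 higher and 2 lower (5 of 63, beside 7.57%), and C498+LPS against C498 2 lower (2 of 63, beside 5.64%). The median log2 change of the 63 was -0.24, -0.022, -0.057 and -0.23 in these comparisons, beside -0.17, 0.014, 0.0065 and -0.18 over all tested genes. None of the 10 tested zinc importers of the ZIP family was called by limma in the 4 comparisons, while 4, 4, 3 and 3 of them, in the order above, had an unadjusted p under 0.05. By the adjusted p alone 1 rose and 1 fell with LPS (2 of 10, beside 29.6% of all tested genes), and 1 rose and 2 fell with C498 (3 of 10, beside 15.5%). With LPS these were Slc39a1, at 0.29 (adjusted p = 0.0433), and Slc39a13, at -0.64 (adjusted p = 0.0109). With C498 these were Slc39a7, which releases zinc from the endoplasmic reticulum and rose by 0.57 (adjusted p = 0.0155), Slc39a4, at -0.995 (adjusted p = 0.0345) and just short of 2-fold, and Slc39a1, at -0.52 (adjusted p = 0.0104). Slc39a1 was also lower in C498+LPS than in LPS, at -0.85 (adjusted p = 0.00155). Fibroblast and mesothelial marker sums were higher in both groups with C498, and their part in these zinc importer changes was not tested.

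Of the 5 tested exporters and vesicle loaders of the ZnT family beside Slc30a1, Slc30a4, which loads zinc into vesicles, was called with C498. It stood at 2.45 and 1.27 TPM in NC, at 4.52 and 3.56 in LPS, at 4.85 and 4.69 in C498 and at 6.72 and 6.61 in C498+LPS. NC was lowest and C498+LPS highest without overlap. The log2 change was 1.04 with C498 (adjusted p = 0.0300) and 0.84 with LPS (adjusted p = 0.0375), the latter short of 2-fold. The fibroblast and mesothelial marker sums were higher in the C498 samples, and their part in the rise of Slc30a4 was not tested. Slc30a6 also rose with LPS, by 0.76 (adjusted p = 0.0104). Mtf1, which encodes the zinc sensor of the metallothioneins, changed by 0.25 with C498 (95% interval -0.30 to 0.80, adjusted p = 0.492), by 0.23 in C498+LPS against LPS (-0.32 to 0.77) and by 0.30 with LPS (-0.25 to 0.85). The multicopper oxidases that oxidise iron for export had 1 tested member, ceruloplasmin (Cp), whose change with LPS was 0.57 (adjusted p = 0.0948) and which was not called in any comparison. None of the 6 tested copper genes was called by limma (unadjusted p under 0.05 for 3 with LPS, 1 with C498, 2 in C498+LPS against LPS and 1 in C498+LPS against C498), beside the 12.2%, 7%, 7.57% and 5.64% of all genes. By the adjusted p alone, 3 of 6 passed with LPS, beside 29.6%: the copper transporters Slc31a1 (0.55) and Slc31a2 (0.45) rose and the copper chaperone Ccs fell (-0.71). Slc31a2 was lower in C498+LPS than in LPS, at -0.99 (adjusted p = 0.00275).

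In the transferrin cycle, the metalloreductase Steap3, which reduces iron in the endosome after Tfrc has taken it up, fell with LPS. It stood at 36.7 and 31.4 TPM in NC, 8.32 and 7.19 in LPS, 24.8 and 26.8 in C498 and 7.07 and 7.21 in C498+LPS, so that both groups with LPS lay far below those without. It was called as lower with LPS (adjusted p = 0.000125) and from C498 to C498+LPS (-1.72, adjusted p = 0.000566). Its relatives Steap1, Steap2 and Steap4 were low in NC (0.70 to 4.05 TPM) and rose with C498 by 1.37, 1.23 and 1.48 (adjusted p = 0.00946, 0.0144 and 0.0121). They rose as well in C498+LPS against LPS, by 1.62, 1.08 and 1.08 (adjusted p = 0.00416, 0.0193 and 0.0304), and the part of the fibroblast markers, which moved in the same samples, was not tested. Lcn2, which captures bacterial siderophores and their iron, stood at 373.6 and 419.3 TPM in NC and at 631.7 and 578.3 in LPS. It stood at 265.1 and 242.7 TPM in C498 and at 254.2 and 238.4 in C498+LPS, which overlapped. Lcn2 rose with LPS by 0.61 (adjusted p = 0.00413), short of 2-fold. From LPS to C498+LPS the change was -1.29 (adjusted p = 0.000619). The neutrophil marker sums given above, which are mostly S100a8, were also lower in C498+LPS than in LPS. Their part in the change of Lcn2 was not tested.

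Among the iron sensors, Hfe, a partner of the transferrin receptor, fell with LPS by 1.08 on the log2 scale (adjusted p = 0.00648) and with C498 by 1.06 (adjusted p = 0.0138). Hamp, which encodes hepcidin, the hormone that closes Slc40a1, was listed at 16.3 and 8.05 TPM in C498+LPS, at 1.71 and 0 in LPS and at 0 in all 4 samples without LPS. It passed the filter on low values only through the C498+LPS samples, so its levels are given as a description, with no test and no fold. Of the remaining sensors, Aco1 (iron regulatory protein) fell with LPS by 0.58 (adjusted p = 0.0292), and Ncoa4, the receptor that delivers ferritin for breakdown, was lower in C498+LPS than in C498, at -0.89 (adjusted p = 0.0412).

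Most of the tested heme recycling genes were lower with LPS. Of 9 tested, 8 passed the adjusted p alone, beside 29.6% of all tested genes, and these 8 were lower, 2 of them by 2-fold. The remaining gene, the biliverdin reductase Blvrb, stood at 0.20 (adjusted p = 0.150). The median of the 9 was -0.65 beside -0.17 over all tested genes. The heme exporter Flvcr1 stood at 71.5 and 44.7 TPM in NC and at 12.5 and 12.9 in LPS, a change of -2.07 (adjusted p = 0.000542). The heme and folate transporter Slc46a1 changed by -1.04 (adjusted p = 0.00667). In C498+LPS, Flvcr1 stood at 23.8 and 21.2 TPM, above both LPS values and below those of C498 (58.2 and 58.0).

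Heme oxygenase Hmox1, which frees iron from heme, moved the other way from most of that list under the compound: by the adjusted p alone, C498 lowered 5 of the 9 and raised Hmox1, 6 of 9 beside 15.5% of all tested genes. It rose with C498 by 0.74 (SE 0.0982, adjusted p = 0.00445) and in C498+LPS against LPS by 0.95 (SE 0.0982, adjusted p = 0.00155), both short of 2-fold, and was lower with LPS alone, at -0.33 (adjusted p = 0.0397). The hemoglobin scavenger Hp, haptoglobin, stood at 197.3 and 213.0 TPM in NC, 149.3 and 169.5 in LPS, 82.1 and 80.5 in C498 and 70.7 and 62.1 in C498+LPS. C498 lowered it by 1.32 without LPS (adjusted p = 0.000548) and by 1.25 with LPS (adjusted p = 0.000889), on the log2 scale. The neutrophil marker sums, which are mostly S100a8, were lower in the same samples, and their part in the change of Hp was not tested. Macrophage marker sums were lower and fibroblast marker sums higher in both groups with C498. Their part in the changes of the heme recycling genes was not tested.

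Of the 14 genes of mitochondrial iron, heme synthesis and iron-sulfur assembly, LPS called 1 in each direction (2 of 14, beside 12.2% of all tested genes). The mitochondrial iron importer Slc25a37 (mitoferrin) rose from 21.6 and 10.3 TPM in NC to 47.2 and 34.6 in LPS, by 1.38 (adjusted p = 0.0253). By the adjusted p alone 6 of the 14 were lower and 1 was higher with LPS, 7 of 14 beside 29.6% of all tested genes, with a median of -0.53 beside -0.17, and 0 passed with C498 by limma, beside 15.5% of all tested genes, where 1 had an unadjusted p under 0.05.

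Genes regulated by NRF2 outside iron handling were set beside these, since NRF2 also acts on ferritin and metallothionein genes. Of 10 tested, LPS called 2 higher (beside 12.2% of all tested genes called), C498 3 higher (beside 7%), C498+LPS against LPS 1 lower (beside 7.57%) and C498+LPS against C498 1 higher (beside 5.64%). With C498, 5 of the 10 were higher (median 0.22). There the adjusted p alone passed 4 upward and 1 downward, beside 15.5% of all tested genes. In C498+LPS against LPS, 4 of the 10 were higher (median -0.21). The adjusted p alone then passed 1 upward and 3 downward, beside 16.8%. The cystine transporter Slc7a11 stood at 17.4 and 8.54 TPM in NC, 179.9 and 144.2 in LPS, 38.9 and 30.1 in C498 and 123.5 and 79.9 in C498+LPS. Txnrd1, a thioredoxin reductase, rose with both LPS (1.42) and C498 (1.28), and Gclc, which makes the glutathione precursor, with C498 (1.16). The fibroblast and mesothelial marker sums were higher in the C498 samples, and their part in the changes of these genes and of Hmox1 was not tested. Gsr, glutathione reductase, was lower in C498+LPS than in LPS, at -1.10.

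**Figure D4:**
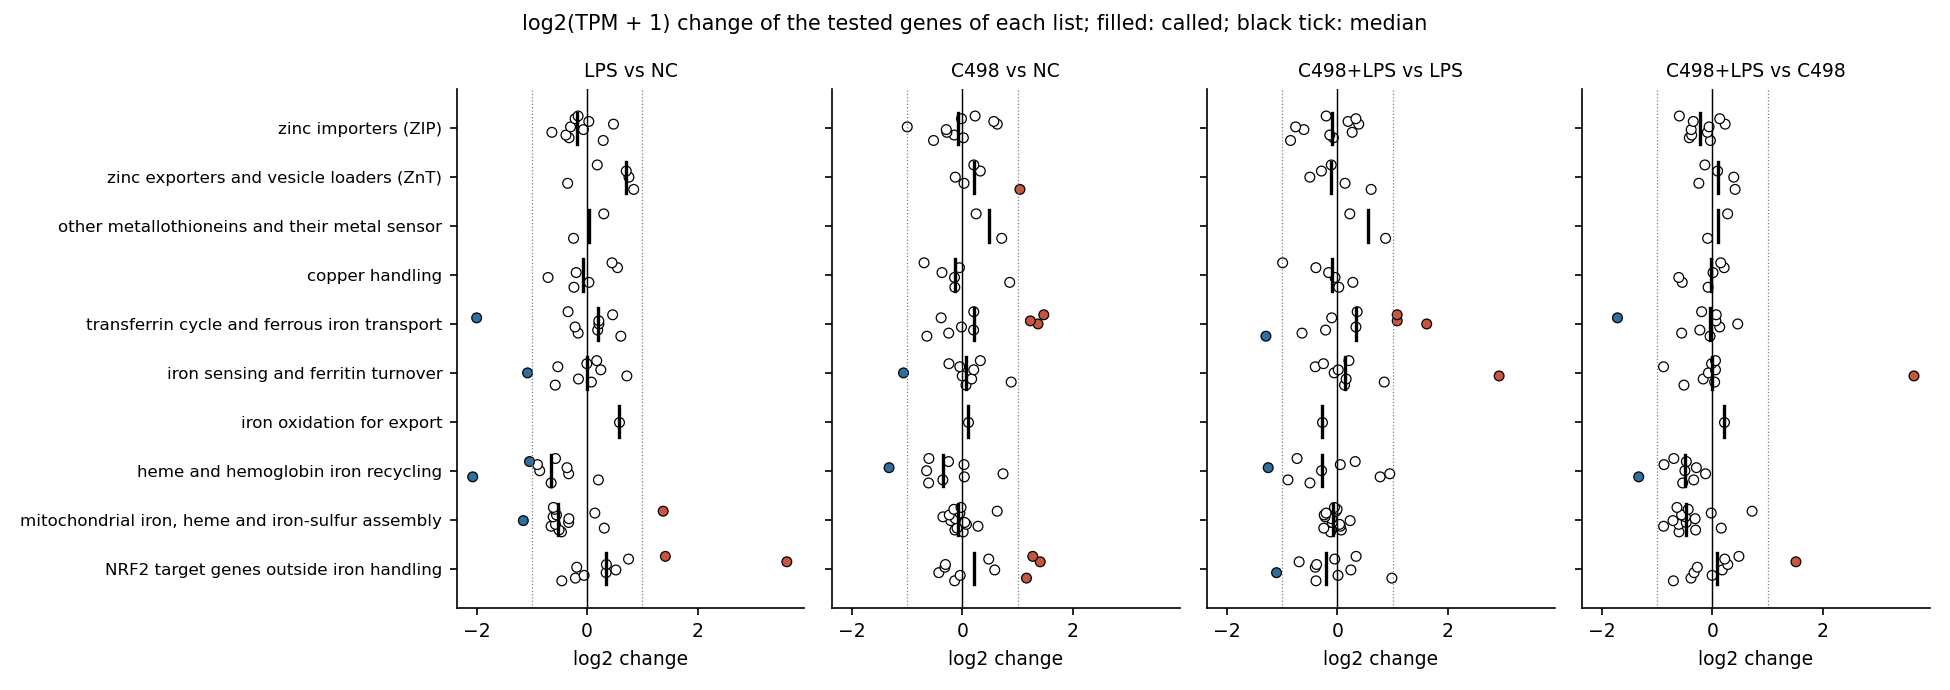
log2(TPM + 1) change of each tested gene of the 9 zinc, copper and iron lists and the NRF2 list (rows of points) in the 4 comparisons. Filled points are called genes, black ticks the median of a list and dotted lines 2-fold. Heme recycling lies left of 0 with LPS (median -0.65), while C498 places Steap1, Steap2 and Steap4 to the right. The point farthest right among the iron sensors in both C498+LPS panels is Hamp. It is drawn filled, but it passed the filter on low values only through the C498+LPS samples, so no call is read from it. The median ticks of that list include Hamp.

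Across the 8 samples, the tested genes outside the 8 whose log2 levels followed each gene most closely were named by Pearson's r, given as a description, since the points share 4 treatments and their libraries. Mt2 was followed by Tspan9 (r = 0.979), Oaf (0.978) and Carhsp1 (0.974), and Mt1 by Gm12758 (0.985), Rps16 (0.955) and Gm29216 (0.950). Slc39a14 was followed by Arhgap35 (0.996) and Cep85l (0.992), and Slc30a1 by Sgk1 (0.980), Padi2 (0.965) and Dop1b (0.964). For Tfrc these were Gm4631, Orc5 and Pcnx3 (0.988 each), for Fth1 Btbd9 (0.966), Snx13 (0.961) and Capza1 (0.960), and for Ftl1 Ogfod2 (0.989), Marchf9 (0.985) and Ttll3 (0.983).  Among the members themselves, r was 0.786 between Mt1 and Mt2, 0.755 between Tfrc and Ftl1, 0.725 between Mt2 and Slc39a14, 0.723 between Slc30a1 and Tfrc, 0.7205 between Slc30a1 and Ftl1 and -0.789 between Slc39a14 and Ftl1, and the remaining pairs lay between -0.697 (Mt1 and Fth1) and 0.247 (Mt1 and Slc39a14).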

How the data were processed

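RNA of 8 samples (4 groups of 2) was sequenced by the authors on an Illumina NovaSeq. The authors filtered reads with fastp and, per the labels, used HISAT2, StringTie and RSEM. The values analysed are the TPM of each gene in each sample as the authors deposited them, to 2 decimals. The genome build, annotation and tool versions are not given in the sources used here. The authors' DESeq2 test needs counts and was not repeated. TPM totals are equal in all samples, so depth is unknown and a rise of some genes lowers the rest.

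Values were transformed to log2(TPM + 1), and 12189 genes averaging 1 TPM or more, of 24248 above 0 in any sample, were fitted with limma 3.58.1 (R 4.3.3), as 1 model of all 8 samples with a mean for each group and a variance trend. Adjusted p are Benjamini-Hochberg over these genes. The steps were tested on simulated data. Adding 1 draws changes of low genes towards 0. Python 3.11.15 with pandas 2.3.3 and matplotlib 3.10.9 was used for sums, sequences and figures.

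The 8 genes and the lists were chosen with earlier results of these data known. The genes named are the 8, list genes called in any of the 4 comparisons, and the 3 genes nearest to each tested one of the 8 by Pearson's r, except that some items are not reported here. Slc39a1, Slc39a4, Slc39a7, Slc39a13, Slc30a6, Blvrb, Mtf1, Mt3, Mt4, Cp, Ccs, Slc31a1, Slc31a2, Aco1, Ncoa4 and Hmox1 were named after their values were seen. Alternatives were a pseudocount of 0.1, no filter, a mean TPM of at least 5, quantile normalization, median centring, fitting the compared groups alone, the replicate number as a block, no variance trend, no fold threshold and leaving out each sample. They were examined for the 8 genes and not for single genes of the lists.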

Additional observations from a re-analysis of the deposited data

How the results depend on the processing

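Of the numbers of called genes, LPS against NC gave 2, with 1 in a fit of only the groups compared, 4 with no fold threshold and 1 to 2 when leaving out a sample. C498 against NC gave 1, with 2 without the fold threshold and 0 to 2 when leaving out a sample. C498+LPS against LPS gave 2 (0 to 2 leaving out a sample). C498+LPS against C498 gave 2 (0 to 2 leaving out a sample), and median centring gave 2 but with Mt1 in place of Slc30a1. The interaction gave 0 in all alternatives but the replicate block, which gave 1, Mt1, with an adjusted p of 0.0360. The labels do not say whether same-numbered samples form pairs. Deviations of same-numbered samples correlated at 0.0397 to 0.168 over the 6 pairs of groups, all above 0. Whether the replicate numbers pair the samples is thus not settled, and the block is given as an alternative. The block changed no other number of called genes.

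Median centring reversed Slc39a14 (-7.01e-05) and Ftl1 (-0.0127) in C498+LPS against LPS and Fth1 (0.20) in C498+LPS against C498, all of which missed the threshold. Leaving out a sample took log2 changes through 0 for genes that were not called: Mt1 (-0.44 to 0.028) and Fth1 (-9.94e-06 to 0.17) with LPS, Tfrc (-0.45 to 0.12), Fth1 (-0.13 to 0.032) and Ftl1 (-0.077 to 0.066) with C498, Slc39a14 (-0.15 to 0.30) and Slc30a1 (-0.22 to 0.070) in C498+LPS against LPS, Fth1 (-0.061 to 0.030) in C498+LPS against C498, and the interactions of Mt2 (-0.40 to 0.25) and Ftl1 (-0.0023 to 0.14). The cause was not tested. Quantile normalization sets Fth1 and Ftl1 to no change, since both keep their ranks in all samples.

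The share of higher genes among all called genes moved with scaling: from 45.4% to 61.7% under centring for LPS, from 80.5% to 67.8% for C498 and from 44.6% to 68.9% for C498+LPS against C498. With 2 samples a group and no read counts, small changes and genes near 1 TPM are the least certain.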
